A study of Mus musculus with 28 samples.

Results

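PU.1, encoded by Spi1, and 9 other transcription factors of the ETS family were followed across mouse splenic dendritic cells: Spib, Ets1, Ets2, Etv3, Etv6, Elf1, Elf4, Ehf and Fli1. They were listed by gene symbol, and the list was chosen with earlier results of these data known. All 10 symbols occurred once in each count table, among 55487 gene identifiers, and all 10 passed the filter on low counts in both experiments. The study sorted type 1 conventional dendritic cells (cDC1), type 2 conventional dendritic cells (cDC2) and a population its labels call hybrid from spleens of C57BL/6 mice. Mice were wild type (WT), or carried an altered +32 kb enhancer of Irf8, named +32H, on 1 allele (Irf8 +32H/+, H/+ below) or on both (Irf8 +32H/H, H/H below). Experiment 1 had 16 libraries in 8 groups: all 3 genotypes gave cDC1 and cDC2, and both genotypes with the altered enhancer also gave hybrid cells. Experiment 2 had 12 libraries in 6 groups. Its cDC1 came from WT mice, from H/H mice and from H/H mice without Nfil3 (H/H Nfil3-/-), and its hybrid cells from the latter 2 and from mice that also carried the Zeb2 -165D123 allele (H/H Zeb2 -165D123). The Nfil3-/- and Zeb2 -165D123 groups all carried the H/H genotype as well, so each was set against H/H cells and not against WT. Each group had 2 libraries, described as biological duplicates. Ages, sort gates and whether a library came from 1 animal or a pool are not given in the sources used here, and p-values measure only the spread between these libraries.

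ETS factors share a DNA-binding domain that recognises a GGAA core. PU.1 and the closely related Spi-B, encoded by Spib, can bind next to IRF4 or IRF8 on composite ETS-IRF elements, and PU.1 is required for dendritic cell development and for many genes of myeloid cells. Of the others, Ets1 is known from lymphoid cells, Ets2 from macrophages, Etv3 and Etv6 as repressors, Elf1 and Elf4 as activators in blood cells, Fli1 from megakaryocytes and blood stem cells, and Ehf mainly from epithelia.

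2 promoter windows are printed because Spib had the largest change between cDC1 and cDC2, and Ets2 fell in both comparisons with Nfil3-/- cells. Each runs from 250 bases before to 50 bases after a gene start (RefSeq, GRCm38.p6), 5′ to 3′ on the gene's strand, with the ETS core (GGAA or its complement TTCC) in capitals. Spib is at chr7:44532022-44532321 on the minus strand and Ets2 at chr16:95702157-95702456 on the plus strand. The annotation GENCODE M21 starts Ets2 further upstream, at base 95702075, so the Ets2 window lies wholly inside that gene span.
Spib: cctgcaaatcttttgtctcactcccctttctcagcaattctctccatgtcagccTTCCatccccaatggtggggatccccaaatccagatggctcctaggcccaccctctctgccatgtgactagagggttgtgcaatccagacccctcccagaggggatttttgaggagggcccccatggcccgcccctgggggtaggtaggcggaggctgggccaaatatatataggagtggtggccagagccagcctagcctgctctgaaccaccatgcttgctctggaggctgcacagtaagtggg
Ets2: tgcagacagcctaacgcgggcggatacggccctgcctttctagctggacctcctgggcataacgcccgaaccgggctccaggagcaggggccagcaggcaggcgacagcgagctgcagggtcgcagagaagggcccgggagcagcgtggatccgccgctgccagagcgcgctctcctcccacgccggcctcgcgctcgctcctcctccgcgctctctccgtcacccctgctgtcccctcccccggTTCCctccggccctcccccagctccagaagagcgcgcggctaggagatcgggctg
Both windows held 1 core, against a median of 3 over 32851 promoter windows. RefSeq windows were matched for 6 of the 10 genes (Spib, Ets2, Etv3, Etv6, Elf1 and Elf4, with 8 windows in all). On both strands, the core was in 8 of these 8 windows and in 96.0% of all windows. The composite ETS-IRF motif (GGAA, then any 2 bases, then GAAA) was in 0 of the 8 and in 2.72% of all, and the NFIL3 motif TTANGTAA was in 0 of the 8 and in 2.32% of all. The interferon response motif (GAAA, any 2 bases, GAAA) was in the Etv6 window and in 3.44% of all windows, and 79 windows held both of these IRF motifs. The ZEB motif CAGGTG was in the Elf1 window and in 20.2% of all. A match is a string of letters, not a binding site, and its absence refers only to this window.

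Levels are CPM values, read counts divided by the TMM-scaled library total (TMM corrects for library composition). Library totals were 23393634 to 38174251 counts in experiment 1 and 17540496 to 22708493 in experiment 2, so 0 counts would allow up to 0.171 CPM (3 counts, counting error only). The labels held against the defining markers: Xcr1, a cDC1 receptor, was at 327 CPM or more in all cDC1 and hybrid libraries and at most 10.5 CPM in cDC2, whereas Sirpa, a cDC2 receptor, was at 205 CPM or more in cDC2, 91.5 to 188 CPM in hybrid cells and at most 22.9 CPM in cDC1. Irf8, the gene of the altered enhancer, was 1960 to 2580 CPM in WT cDC1, 1091 to 1221 CPM in H/+ cDC1 and 831 to 837 CPM in H/H cDC1 of experiment 1. Nfil3 was 30.9 to 55.3 CPM in the other groups of experiment 2 and 2.76 to 5.70 CPM in the Nfil3-/- groups. Zeb2 was 38.6 to 46.9 CPM in H/H hybrid cells and 10.3 to 19.6 CPM in H/H Zeb2 -165D123 hybrid cells. The deposited tables were made separately and levels were not tested between experiments.

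The 10 factors differed widely in level and in how much they varied. Per kilobase of exons in WT cDC1 of experiment 1, Etv6 was highest, at 18.5 and 18.6 CPM per kb, followed by Fli1 at 12.8 and 14.3, Elf1 at 13.3 and 11.9, Etv3 at 9.05 and 9.22 and Spi1 at 8.87 and 8.63. Elf4 followed at 5.49 and 5.64, Ehf at 0.902 and 0.810, Spib at 0.699 and 0.479, Ets1 at 0.297 and 0.394 and Ets2 at 0.184 and 0.328 CPM per kb. Of the neighbours in this order, Fli1 and Elf1 overlapped between libraries, as did Ets1 and Ets2, and the other neighbours did not. The order was not the same in WT cDC1 of experiment 2. There Spi1 was highest, at 38.1 and 31.5 CPM per kb, above Etv6 at 23.3 and 26.2 CPM per kb. Over the 8 groups of experiment 1 the range of the mean log2 CPM was 4.31 for Ehf, 4.10 for Spib and 3.46 for Ets1, then 1.69 for Ets2, 1.26 for Elf1, 0.93 for Etv3, 0.75 for Spi1, 0.57 for Fli1, 0.44 for Elf4 and 0.17 for Etv6. Etv6, at 99.2 to 125 CPM in every library of experiment 1, passed no test in any of the 22 comparisons. Etv6 and Elf1 each overlap exons of a gene on the opposite strand, Gm17089 at 1.81 to 4.58 CPM and Wbp4 at 22 to 35.8 CPM in experiment 1, and whether counting used strand is not given in the sources used here.

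**Figure D1:**
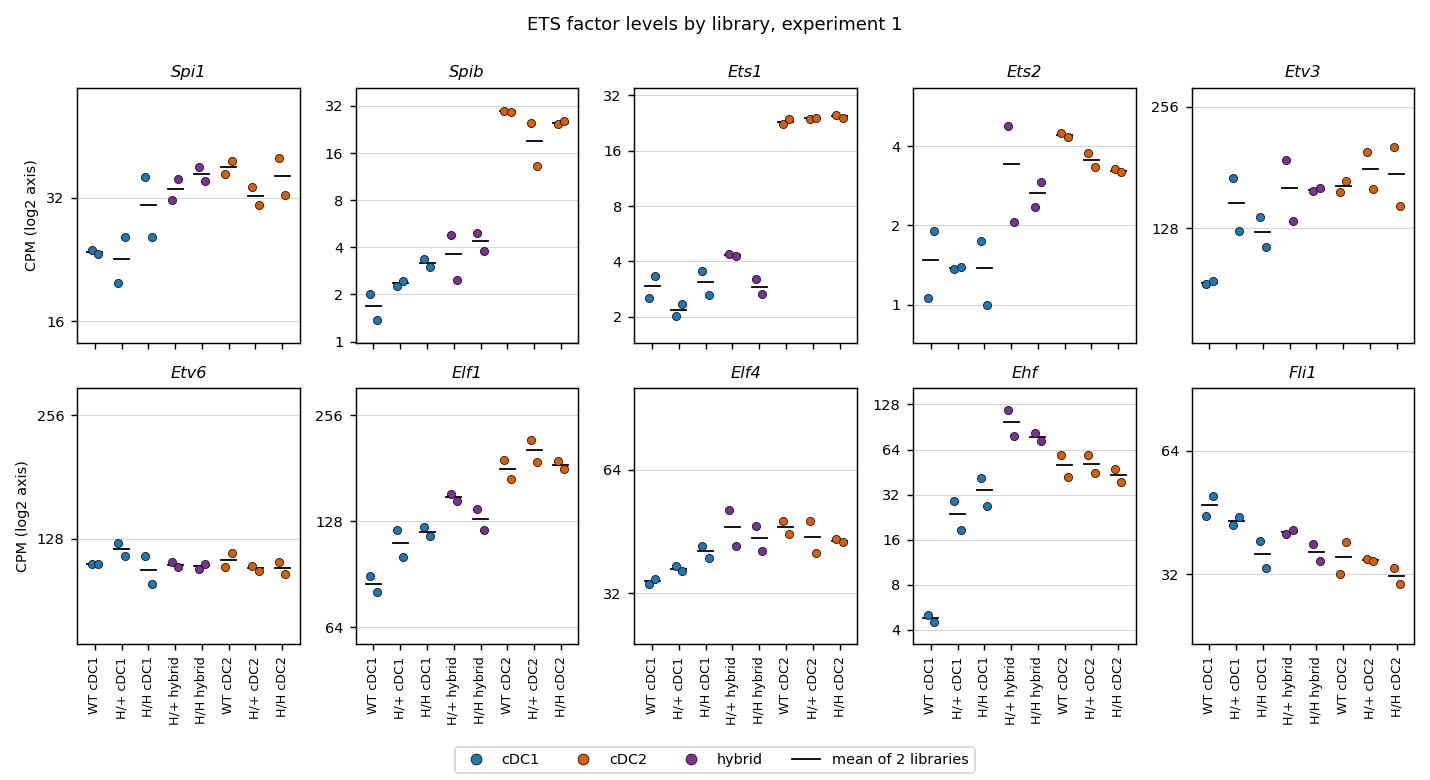
Each panel plots 1 gene of experiment 1, with the 8 groups on the x axis and CPM on a log2 y axis. Points are libraries, coloured by cell type, and the line is the mean of 2 libraries. Spib and Ets1 stand high in the 3 cDC2 groups only, Ehf is lowest in WT cDC1 and highest in the hybrid groups, and Etv6 stays between 99.2 and 125 CPM.

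WT cDC1 and WT cDC2 differed in 9 of the 10 factors, of which 8 were lower in cDC1 (Spi1, Spib, Ets1, Ets2, Etv3, Elf1, Elf4 and Ehf) and Fli1 was higher. In the same comparison 44.0% of all genes tested were called (20.5% higher and 23.4% lower), and the median log2 fold change was -0.94 for the 10 factors and -0.07 for all genes. As these are bulk samples, fewer cells of a type and less RNA per cell cannot be told apart. Spi1 (chromosome 2, 91082390 to 91115756, GRCm38) was 23.9 and 23.3 CPM in the WT cDC1 libraries and 36.5 and 39.4 CPM in WT cDC2. The groups did not overlap, and Spi1 was 1.61-fold lower in cDC1 (log2 -0.69 ± 0.16 SE, adjusted p = 0.00284). Its relative Spib (chromosome 7, 44525993 to 44532071) was 2.00 and 1.37 CPM in cDC1 and 29.9 and 29.3 CPM in cDC2. This was the largest gap of the 10 factors, 17.6-fold lower in cDC1 (log2 -4.14 ± 0.34 SE, adjusted p = 3.56e-07).

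The same order held for the founding members of the family. Ets1 (chromosome 9, 32636221 to 32757820) was 2.52 and 3.34 CPM in WT cDC1 and 22.2 and 23.7 CPM in WT cDC2, 7.80-fold lower in cDC1 (log2 -2.96 ± 0.17 SE, adjusted p = 2.85e-09). Ets2 (chromosome 16, 95702075 to 95721051) was low in both WT cell types, at 1.06 and 1.90 CPM in cDC1 and 4.48 and 4.34 CPM in cDC2, a 2.95-fold difference (log2 -1.56 ± 0.37 SE, adjusted p = 0.00293). Both genes separated the 2 cell types without overlap. Ehf (chromosome 2, 103263433 to 103303278) was low in WT cDC1, at 5.03 and 4.52 CPM, and was 58.7 and 42.2 CPM in WT cDC2, 10.6-fold apart (log2 -3.40 ± 0.32 SE, adjusted p = 4.52e-06). Elf1 (chromosome 14, 79481194 to 79582494) was 89.7 and 80.3 CPM in cDC1 against 191 and 169 CPM in cDC2, 2.12-fold apart (log2 -1.08 ± 0.12 SE, adjusted p = 2.26e-06).

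The remaining changes were under 2-fold. Etv3 (chromosome 3, 87525407 to 87540156) was 92.9 and 94.7 CPM in WT cDC1 and 157 and 168 CPM in WT cDC2 (log2 -0.79 ± 0.20 SE, adjusted p = 0.00506). Elf4 (chromosome X, 48411046 to 48463132) was 33.7 and 34.7 CPM against 48.1 and 44.7 CPM (log2 -0.44 ± 0.12 SE, adjusted p = 0.00775). Fli1 (chromosome 9, 32422204 to 32542861) alone ran the other way, at 44.5 and 49.7 CPM in cDC1 and 32.1 and 38.3 CPM in cDC2 (log2 0.42 ± 0.11 SE, adjusted p = 0.00791). Etv6 (chromosome 6, 134035700 to 134270158) was 111 CPM in both cDC1 libraries and 109 and 118 CPM in cDC2, which overlap that value. The Fli1 call was lost without WT cDC1 replicate 2 (0.34, adjusted p = 0.0761) or WT cDC2 replicate 1 (0.30, adjusted p = 0.106), and the Elf4 call without WT cDC2 replicate 1 (-0.38, adjusted p = 0.0613).

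The same lineages were set against each other in mice with the altered enhancer, in 2 comparisons added after the data were seen. In H/+ mice 6 factors were lower and 1 higher in cDC1 (38.3% of all genes called, 20.0% lower and 18.3% higher), and in H/H mice 4 were lower (36.7% called, 19.1% lower). Spib, Ets1, Ets2 and Elf1 were lower in cDC1 in both genotypes, with log2 differences of -3.02, -3.45, -1.37 and -0.87 in H/+ and of -2.97, -2.98, -1.22 and -0.63 in H/H. Spi1 (-0.51, adjusted p = 0.0203), Ehf (-1.11, adjusted p = 0.00868) and Fli1 (0.31, adjusted p = 0.0429) passed in H/+ and not in H/H, and the difference between these 2 genotypes was not tested. The H/+ calls were lost for Spi1 without H/+ cDC1 replicate 1 (-0.34) or H/+ cDC2 replicate 1 (-0.44), for Ehf without H/+ cDC1 replicate 2 (-0.83) or H/+ cDC2 replicate 1 (-0.90), and for Fli1 without any 1 of the 4 libraries (0.28 to 0.35) or with no filter on low counts (0.30). The Ets2 call in H/H was lost without H/H cDC1 replicate 2 (-0.88), H/H cDC2 replicate 1 (-1.21) or H/H cDC2 replicate 2 (-1.24).

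The balance of the 2 related factors Spi1 and Spib differed between the lineages. Per kilobase, the ratio of Spi1 to Spib was 1.30 to 1.43 in WT cDC2 libraries and 12.7 to 18.0 in WT cDC1. It was 1.45 to 2.46 in H/+ cDC2 and 1.35 to 1.73 in H/H cDC2, and 9.26 to 11.2 in H/+ cDC1 and 9.07 to 11.3 in H/H cDC1. Hybrid cells held ratios of 7.0 to 15.3 (H/+) and 8.20 to 9.82 (H/H), above every cDC2 library and overlapping the cDC1 ranges. In experiment 2, which had no cDC2, all ratios lay between 27.9 and 79.3. WT cDC1 had ratios of 39.4 to 79.3 there, above those of WT cDC1 in experiment 1. Spi1 was 103 and 84.8 CPM in WT cDC1 of experiment 2 and 23.9 and 23.3 CPM in experiment 1, a gap that was not tested.

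**Figure D2:**
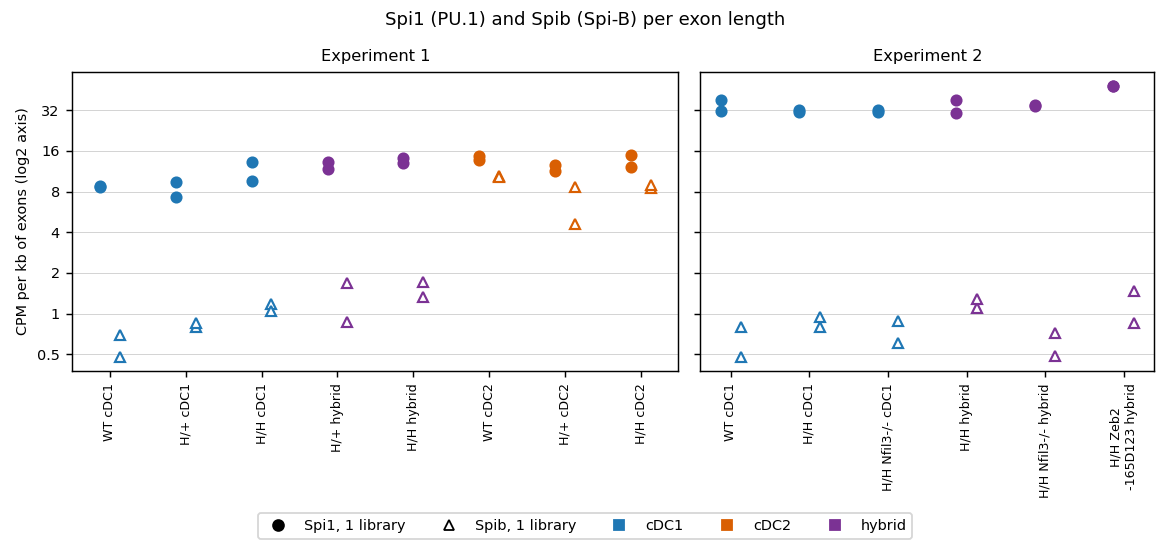
CPM per kb of exons of Spi1 (filled circles) and Spib (open triangles) in every library, by group on the x axis and on a log2 y axis, with 1 panel per experiment. In cDC2 both genes lie between 4.64 and 14.8 CPM per kb, while in cDC1 and hybrid cells Spib lies at or under 1.72 CPM per kb.

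Some genes of other cell types moved beside Spib and Ets1, while others ran the other way. Siglech, a receptor of plasmacytoid dendritic cells (pDC), was 7.25 to 11 CPM in the 6 cDC2 libraries and at most 1.46 CPM in all other libraries of experiment 1, and the summed level of the 15 pDC markers, which include Spib, was 442 to 472 CPM in cDC2 and 135 to 313 CPM elsewhere. Lair1 was the highest of these markers in WT cDC2, with a mean of 159 CPM. The pDC marker Ccr9 ran the other way, at 27.7 to 30.0 CPM in WT cDC1 and 6.62 to 10.6 CPM in WT cDC2. Runx2, also listed, was 27.3 to 28.1 CPM in H/+ hybrid cells and 18.9 to 24.7 CPM in H/+ cDC2. The pDC marker Klk1 was at 0 in the cDC1 and hybrid groups of experiment 1 and in H/H cDC2. The 12 T cell markers summed to 41.2 to 58.2 CPM in WT cDC2 and 18.7 to 26.4 CPM in WT cDC1, with Cd3e at most 3.52 CPM, and 4 of 11 tested were lower in WT cDC1 (median log2 -0.93). Of 11 B cell markers tested 7 were lower and 2 higher in WT cDC1 (median log2 -3.30), with sums of 701 to 732 CPM in WT cDC2 and 507 to 579 CPM in WT cDC1. Cd79a, a part of the B cell receptor, was 1.35 to 3.37 CPM in WT cDC2 and 0.425 to 0.668 CPM in WT cDC1. The part of these cells in the levels of Spib and Ets1 was not tested.

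Of the 10 factors, Ehf was called in cDC1 of both genotypes with the +32H allele. In H/+ cDC1 Ehf was 29.0 and 18.7 CPM and in H/H cDC1 41.4 and 27.0 CPM, against 5.03 and 4.52 CPM in WT cDC1. Both groups lay above WT without overlap. Ehf rose 5.0-fold in H/+ (log2 2.32 ± 0.31 SE, adjusted p = 0.00509) as the only 1 of 10 factors called, where 1.47% of all genes were called. It rose 7.18-fold in H/H (log2 2.84 ± 0.31 SE, adjusted p = 0.000306), where 4.17% were called. Experiment 2 gave 46.0 and 43.1 CPM in H/H cDC1 and 5.28 and 9.59 CPM in its own WT cDC1 libraries. That is a 5.99-fold rise (log2 2.58 ± 0.22 SE, adjusted p = 2.34e-06), and again Ehf was the only factor of 10 called, with 6.32% of all genes called. The H/+ call was lost without WT cDC1 replicate 1 (2.40, adjusted p = 0.0652) or WT cDC1 replicate 2 (2.24, adjusted p = 0.0818), while both H/H calls were kept without any 1 library. With a term for libraries holding Xist, the RNA of the inactive X chromosome, 3 factors were called in H/+ cDC1 in place of 1, Etv3 (log2 0.64, adjusted p = 0.0231) and Elf1 (0.38, adjusted p = 0.0173) beside Ehf.

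Markers of cDC2 moved beside Ehf in the same libraries. Of the 18 cDC2 markers 3 were higher and 0 lower in H/+ cDC1 (median log2 0.75), 8 higher and 0 lower in H/H cDC1 of experiment 1 (median 0.86), and 12 higher and 0 lower in experiment 2 (median 2.17). Their sums were 435 to 451 CPM in WT cDC1, 557 to 651 CPM in H/+ and 638 to 659 CPM in H/H of experiment 1, and 479 to 614 CPM in WT and 894 to 1070 CPM in H/H of experiment 2. Sirpa was 0.884 to 1.18 CPM in WT cDC1, 2.07 to 2.38 CPM in H/+ and 4.81 to 8.17 CPM in H/H of experiment 1, and at most 1.08 CPM in WT and at most 22.9 CPM in H/H of experiment 2. The part of cDC2 or hybrid cells, which held more Ehf than WT cDC1, in the Ehf rise was not tested.

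Elf1 was the other factor called in H/H cDC1 of experiment 1, at 18.2 and 17.3 CPM per kb against 13.3 and 11.9 CPM per kb in WT (log2 0.49 ± 0.12 SE, adjusted p = 0.0231). In experiment 2 Elf1 was 105 and 100 CPM in H/H and 85.4 and 90.7 CPM in WT, without overlap, but did not pass the test (log2 0.22, adjusted p = 0.343). The call in experiment 1 was lost without any 1 of the 4 libraries, with values of 0.57 and 0.41 without WT cDC1 replicate 1 and 2 and of 0.45 and 0.53 without H/H cDC1 replicate 1 and 2. The other factors did not pass: 9 in H/+ (log2 -0.43 to 0.66), 8 in H/H of experiment 1 (-0.39 to 0.93) and 9 in experiment 2 (-0.14 to 0.52). Spi1 was among them, at 19.8 and 25.6 CPM in H/+ cDC1 and 35.9 and 25.6 CPM in H/H cDC1, where 1 of the 2 H/H libraries stood above all other cDC1 libraries of experiment 1.

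Between H/H and H/+ cDC1 the Ehf libraries overlapped (log2 0.52 ± 0.28 SE, adjusted p = 0.727). None of the 10 factors was called there by edgeR (0.281% of all genes) or by DESeq2, while 3 factors and 1248 of all genes had an unadjusted p below 0.05. In cDC2 the allele moved no factor past the threshold. H/+ cDC2 against WT cDC2 had 0 calls (0.0249% of all genes, log2 -0.63 to 0.18), and H/H cDC2 had 0 (0.0811%, log2 -0.45 to 0.10), by edgeR and by DESeq2. Unadjusted p was below 0.05 for 1 and 0 factors and for 829 and 563 of all genes. Ehf was 58.5 and 44.6 CPM in H/+ cDC2 and 47.3 and 38.8 CPM in H/H cDC2, overlapping the WT cDC2 values of 58.7 and 42.2 CPM. Whether H/H acted differently in the 2 cell types was tested directly. Ehf differed by 3.07 ± 0.42 SE (log2, adjusted p = 0.00246), the only factor of 10 called, with 1.90% of all genes called, and the call was kept without any 1 library. With the Xist term Elf1 was called as well (0.45, adjusted p = 0.0483).

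Hybrid cells had less Spib, Ets1 and Elf1 than cDC2 of their own genotype, and more Ehf than both cDC1 and cDC2. Ehf was 117 and 78.3 CPM in H/+ hybrid cells and 82.0 and 73.4 CPM in H/H hybrid cells. Every hybrid library was above every cDC1 and cDC2 library of experiment 1. The rise over cDC1 was 4.10-fold in H/+ (log2 2.04 ± 0.29 SE, adjusted p = 0.00046) and 2.27-fold in H/H (1.18 ± 0.28 SE, adjusted p = 0.0251). Over cDC2 it was 1.90-fold in H/+ (0.92 ± 0.28 SE, adjusted p = 0.0381) and 1.80-fold in H/H (0.85 ± 0.28 SE, adjusted p = 0.0434). The shares of all genes called were 16.5% (9.77% higher) and 19.0% for H/+ hybrid cells against cDC1 and cDC2, and 7.85% and 25.4% for H/H. The H/H rise over cDC1 was lost without H/H cDC1 replicate 2 (0.91, adjusted p = 0.201), H/H hybrid replicate 1 (1.10, adjusted p = 0.138) or H/H hybrid replicate 2 (1.26, adjusted p = 0.0834). The rise over cDC2 was lost with no filter on low counts (0.91 in H/+ and 0.84 in H/H), without H/+ hybrid replicate 1 (0.61), H/+ cDC2 replicate 1 (1.14) or H/+ cDC2 replicate 2 (0.74), and in H/H without any 1 library (0.71 and 1.0 without H/H cDC2 replicate 2 and 1, 0.77 and 0.93 without H/H hybrid replicate 1 and 2).

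Spib was low in hybrid cells, with 4.81 and 2.48 CPM in H/+ and 4.93 and 3.80 CPM in H/H. The cDC2 libraries had 25 and 13.3 CPM (H/+) and 24.5 and 25.5 CPM (H/H). The hybrid values were 5.32-fold lower in H/+ (log2 -2.41 ± 0.31 SE, adjusted p = 0.00011) and 5.73-fold lower in H/H (-2.52 ± 0.30 SE, adjusted p = 4.33e-05), and neither group overlapped its cDC2. Ets1 was 4.41 and 4.26 CPM in H/+ hybrid cells and 3.2 and 2.65 CPM in H/H hybrid cells, against 23.7 and 24.1 and against 25.1 and 24.0 CPM in cDC2. It was 5.51-fold (adjusted p = 8.78e-08) and 8.38-fold lower (adjusted p = 7.93e-09). Elf1 was 153 and 146 CPM in H/+ hybrid cells, below the 218 and 189 CPM of cDC2 (log2 -0.44 ± 0.12 SE, adjusted p = 0.0136), and 139 and 121 CPM in H/H, below 190 and 180 CPM (-0.51 ± 0.12 SE, adjusted p = 0.00445). The Elf1 calls were lost without H/+ hybrid replicate 1 (-0.48), H/+ hybrid replicate 2 (-0.40) or H/+ cDC2 replicate 1 (-0.33), and in H/H without H/H hybrid replicate 2 (-0.41). The other 6 factors of each genotype did not pass against cDC2, with log2 values of -0.15 to 0.23 in H/+ and -0.29 to 0.19 in H/H.

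Against cDC1, H/+ hybrid cells had 4 further factors higher. Spi1 was 31.6 and 35.6 CPM against 19.8 and 25.6 CPM (log2 0.57 ± 0.16 SE, adjusted p = 0.0249). Ets1 was 4.41 and 4.26 CPM against 2.02 and 2.34 CPM (0.99 ± 0.19 SE, adjusted p = 0.00167). Ets2 was 4.77 and 2.06 CPM against 1.37 and 1.39 CPM (1.29 ± 0.38 SE, adjusted p = 0.0279). Elf1 was 153 and 146 CPM against 121 and 101 CPM (0.43 ± 0.12 SE, adjusted p = 0.0177). In all 4 the hybrid libraries lay above the cDC1 libraries, and the 2 hybrid libraries differed most for Ets2. Of the 16 monocyte and macrophage markers 11 were higher and 1 lower in H/+ hybrid cells (median log2 2.71), with sums of 1848 to 2102 against 904 to 905 CPM. Of 7 neutrophil markers tested 5 were higher, with sums of 18.2 to 20.4 against 0.722 to 0.745 CPM. Most of the hybrid sum was Csf3r, also on the list of PU.1 targets, with a mean of 14.3 CPM (15.4 CPM in WT cDC2). In H/+ hybrid cells S100a8 was at most 2.24 CPM, Camp at most 0.106 CPM and Ly6g at most 0.0891 CPM. The platelet and erythroid markers summed to 41.8 to 132 against 26.6 to 27.4 CPM, with 0 higher and 1 lower. The part of these cells in the 4 rises was not tested. The Ets2 value fell to 0.58 (adjusted p = 0.423) without H/+ hybrid replicate 1, and its call was also lost without H/+ cDC1 replicate 1 (1.28) or 2 (1.30). The Spi1 call was lost without H/+ cDC1 replicate 1 (0.40) or H/+ hybrid replicate 2 (0.48), and the Elf1 call without H/+ cDC1 replicate 2 (0.30), H/+ hybrid replicate 1 (0.40) or H/+ hybrid replicate 2 (0.46). In H/H mice these 4 did not pass, and hybrid cells of H/H and H/+ mice differed in 0 factors by edgeR (0.131% of all genes called) and by DESeq2, with 1 factor and 1079 genes at an unadjusted p below 0.05.

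**Figure D3:**
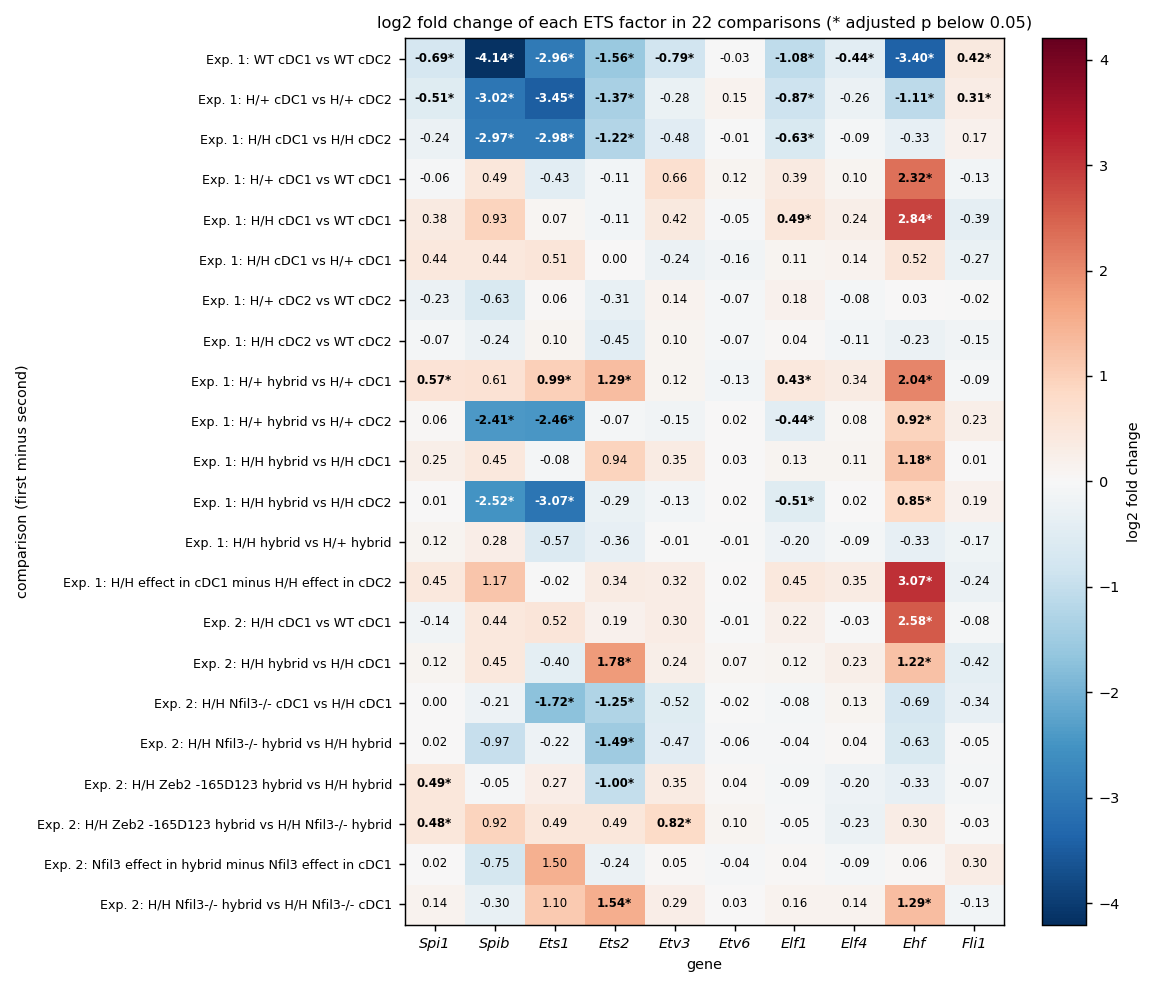
Heat map of the log2 fold change, first group minus second, of the 10 factors (columns) in 22 comparisons (rows), with an asterisk where the adjusted p was below 0.05. Ehf was called in 12 comparisons, Ets2 in 9, Ets1 and Elf1 in 7 each, Spi1 and Spib in 5 each, Etv3 and Fli1 in 2 each, Elf4 in 1 and Etv6 in 0. Comparisons that share a group are not independent.

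Experiment 2 held hybrid cells of 3 genotypes. In H/H hybrid cells Ehf was 114 and 94.2 CPM and in H/H cDC1 46.0 and 43.1 CPM, a 2.34-fold rise (log2 1.22 ± 0.20 SE, adjusted p = 0.000907). Ets2 was 14.8 and 15.5 CPM against 4.97 and 3.84 CPM, a 3.44-fold rise (1.78 ± 0.23 SE, adjusted p = 7.48e-05). Neither gene overlapped between the groups, and both calls were kept without any 1 library. In experiment 1 the same comparison did not pass for Ets2 (0.94 ± 0.38 SE, edgeR adjusted p = 0.167). Its levels there were 2.36 and 2.93 CPM in H/H hybrid cells and 1.75 and 1.00 CPM in H/H cDC1. Ehf and Ets2 were the 2 factors of 10 called in experiment 2, where 12.5% of all genes were called. The same 2 were called between H/H Nfil3-/- hybrid cells and H/H Nfil3-/- cDC1, in a comparison added after the data were seen (Ehf 1.29 ± 0.20 SE, adjusted p = 0.00104, and Ets2 1.54 ± 0.26 SE, adjusted p = 0.00132, with 5.28% of all genes called). The summed level of the 16 monocyte and macrophage markers was also higher in hybrid cells, at 1425 to 2014 CPM against 709 to 826 CPM in cDC1 of experiment 2, and its part in these differences was not tested.

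Loss of Nfil3, a bZIP repressor, went with lower Ets2 in both cell types. Ets2 was 1.95 and 1.74 CPM in H/H Nfil3-/- cDC1 against 4.97 and 3.84 CPM in H/H cDC1, and 5.62 and 5.15 CPM in H/H Nfil3-/- hybrid cells against 14.8 and 15.5 CPM in H/H hybrid cells. The groups did not overlap in either cell type. Ets2 fell 2.38-fold in cDC1 (log2 -1.25 ± 0.26 SE, adjusted p = 0.0126) and 2.81-fold in hybrid cells (-1.49 ± 0.22 SE, adjusted p = 0.00109), where 3.03% and 3.73% of all genes were called. Ets1 was 0.866 and 0.817 CPM in H/H Nfil3-/- cDC1 and 2.61 and 2.95 CPM in H/H cDC1 (-1.72 ± 0.38 SE, adjusted p = 0.0178), the second of the 2 factors called in cDC1. In hybrid cells Ets1 overlapped, at 1.35 and 2.23 against 1.57 and 2.65 CPM. The difference between the Nfil3 effects in the 2 cell types passed for 0 factors by edgeR (0.00689% of all genes) and by DESeq2, with 1 factor and 510 genes at an unadjusted p below 0.05. The Ets2 call in hybrid cells was kept without any 1 library. In cDC1 it was lost without H/H cDC1 replicate 1 (-1.05), H/H Nfil3-/- cDC1 replicate 1 (-1.33) or H/H Nfil3-/- cDC1 replicate 2 (-1.16), and the Ets1 call was lost without any 1 library (-1.80 and -1.60 without H/H cDC1 replicate 1 and 2, -1.75 and -1.67 without H/H Nfil3-/- cDC1 replicate 1 and 2).

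Ehf had lower values in Nfil3-/- cells, 26.4 and 28.8 CPM in cDC1 (log2 -0.69 ± 0.20 SE, adjusted p = 0.085) and 59.1 and 75.6 CPM in hybrid cells (-0.63 ± 0.19 SE, adjusted p = 0.0866). The libraries did not overlap those of H/H cells, but neither difference passed with edgeR, whereas both passed with DESeq2 (adjusted p = 0.0174 and 0.0259) and with no filter on low counts (0.000725 and 0.003). Neutrophil markers stood apart in the same libraries. The 12 markers summed to 30.2 to 38.4 CPM in H/H Nfil3-/- cDC1 against 1.38 to 1.43 CPM in H/H cDC1, and to 64.5 to 117 CPM against 18.3 to 20.9 CPM in hybrid cells, with Ngp at 11.3 to 35.1 CPM in the Nfil3-/- libraries. The 12 T cell markers were lower beside Ets1, at 7.45 to 9.80 CPM in H/H Nfil3-/- cDC1 and 12.9 to 15.4 CPM in H/H cDC1. The part of these cells in the values of Ets2, Ets1 and Ehf was not tested.

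The Zeb2 -165D123 allele was measured in H/H hybrid cells. Spi1 was 131 and 130 CPM there, above all 10 other libraries of experiment 2, in which it ranged from 82.6 to 103 CPM. Against H/H hybrid cells (82.6 and 102 CPM) Spi1 rose 1.41-fold (log2 0.49 ± 0.13 SE, adjusted p = 0.0398). Ets2 was 7.99 and 7.12 CPM against 14.8 and 15.5 CPM and fell 2.01-fold (-1.0 ± 0.22 SE, adjusted p = 0.0151), so 2 of 10 factors were called where 4.03% of all genes were. Of the 16 monocyte and macrophage markers 6 were higher and 2 lower in the Zeb2 -165D123 cells (median log2 1.12), with sums of 1954 to 2014 against 1675 to 1782 CPM. The platelet and erythroid markers summed to 77 to 108 against 16.3 to 58.9 CPM, with 0 called. The part of these cells in the Spi1 and Ets2 values was not tested. The Spi1 call was lost without H/H hybrid replicate 1 (0.34, adjusted p = 0.495), H/H Zeb2 -165D123 hybrid replicate 1 (0.49, adjusted p = 0.139) or replicate 2 (0.48, adjusted p = 0.174), with the replicate number as a block (adjusted p = 0.0594) and with a term for libraries holding Xist (0.083). The Ets2 call was lost with the Xist term (-0.93, adjusted p = 0.0512) and without any 1 library (-1.05 and -0.98 without H/H hybrid replicate 1 and 2, -1.08 and -0.95 without H/H Zeb2 -165D123 hybrid replicate 1 and 2).

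Set against H/H Nfil3-/- hybrid cells, the Zeb2 -165D123 cells had 2 factors higher, where 10.9% of all genes were called. Spi1 was 131 and 130 CPM against 93.3 and 93.8 CPM (log2 0.48 ± 0.13 SE, adjusted p = 0.0246). Etv3, a repressor, was 317 and 334 CPM against 194 and 174 CPM (0.82 ± 0.16 SE, adjusted p = 0.00326). H/H hybrid cells had 272 and 239 CPM of Etv3, between the 2 and without overlap with either. In the same comparison 7 of the 16 monocyte and macrophage markers were higher and 2 lower (median log2 1.2, sums of 1954 to 2014 against 1425 to 1588 CPM), and of 10 neutrophil markers tested 5 were lower (median log2 -3.10, sums of 14.1 to 30.1 against 64.5 to 117 CPM). Their part was not tested. The Spi1 call was lost without any 1 library (0.45 and 0.44 without H/H Zeb2 -165D123 hybrid replicate 1 and 2, 0.47 and 0.44 without H/H Nfil3-/- hybrid replicate 1 and 2), and the Etv3 call without H/H Nfil3-/- hybrid replicate 2 (0.71, adjusted p = 0.0622).

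**Figure D4:**
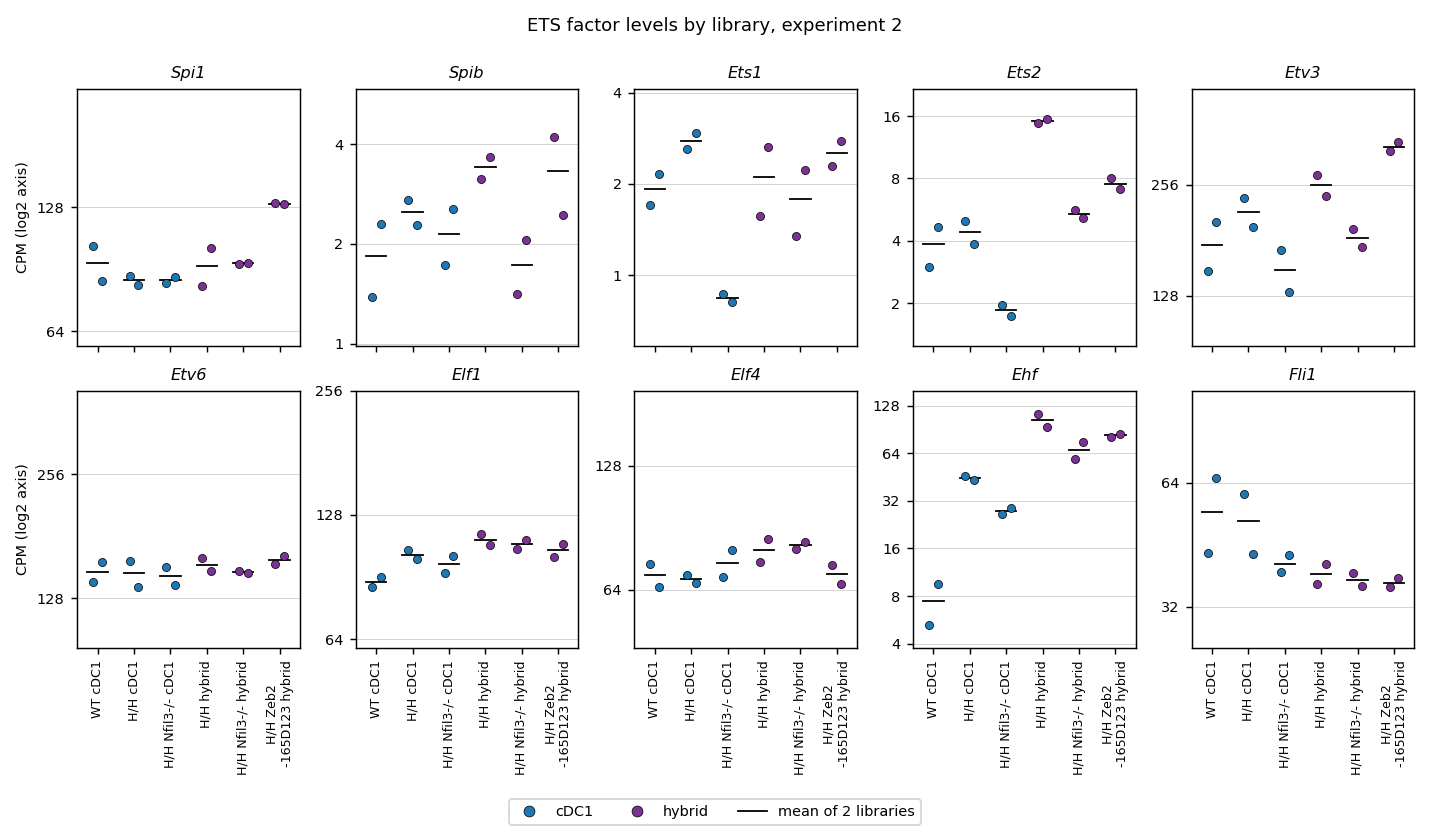
Each panel plots 1 gene of experiment 2, with the 6 groups on the x axis and CPM on a log2 y axis. Points are libraries, coloured by cell type, and the line is the mean of 2 libraries. Ehf and Ets2 are highest in H/H hybrid cells, Spi1 is 130 and 131 CPM in H/H Zeb2 -165D123 hybrid cells, and Ets1 is lowest in H/H Nfil3-/- cDC1.

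Other genes of the family were read from a second list. Of 16 other ETS genes in the tables, 9 passed the filter on low counts, and the other 7 (Elf3, Elf5, Erg, Etv2, Etv4, Fev and Spdef) reached at most 0.305 CPM in any library. Of the 9, Spic, a macrophage relative of PU.1, was 13.8 to 49.8 CPM in experiment 1 and 6.94 to 72.9 CPM in experiment 2. In WT cDC1 against cDC2, where 44.0% of all genes were called and 23.4% were lower, 4 of the 9 were lower and 0 higher, a share called close to that of all genes. These were Elk3, a ternary complex factor, by log2 -3.71 ± 0.23 SE (adjusted p = 5.48e-09), Etv5 by -2.05 ± 0.38 SE (adjusted p = 0.000639), and also Spic and Elk1. In the +32H comparisons within cDC1 and within cDC2 none of the 9 was called in either experiment, where 0.0249% to 6.32% of all genes were called. Hybrid cells had Elk3 and Etv5 higher than cDC1 in H/+ mice (16.5% of all genes called) and in H/H mice of experiment 2 (12.5%). In H/H mice of experiment 1, 0 of 9 were called (7.85%). Against cDC2, Elk3 was lower in hybrid cells, by log2 -2.14 ± 0.21 SE in H/+ and -2.22 ± 0.21 SE in H/H. Elk1 was also lower in H/H (-1.06 ± 0.23 SE). In these comparisons with cDC2, 19.0% (H/+) and 25.4% (H/H) of all genes were called.

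Genes known from myeloid cells as PU.1 targets were read from a list of 28, all of which passed the filter. In WT cDC1 against cDC2, 17 were lower and 2 higher, where 23.4% of all genes were lower and 20.5% higher (median log2 -0.44, against -0.07 for all genes). Cybb, a subunit of the phagocyte oxidase, was 3.24 and 4.21 CPM in cDC1 and 494 to 534 CPM in cDC2 (log2 -7.11 ± 0.19 SE), the integrin Itgam differed by -6.74 ± 0.27 SE, and the receptor Csf1r by -4.57 ± 0.21 SE. Csf3r, the G-CSF receptor, was 14.4 to 16.4 CPM in cDC2 and at most 0.0786 CPM in cDC1, too low for a fold. In H/H cDC1 against WT cDC1, 5 targets rose in experiment 1, Cybb, Csf3r, Itgam and Ptprc among them, where 4.17% of all genes were called. In experiment 2, 7 rose and 1 fell, where 6.32% of all genes were called. Cybb rose by log2 4.15 ± 0.17 SE and 6.30 ± 0.20 SE and Itgam by 2.53 ± 0.28 SE and 2.98 ± 0.27 SE in the 2 experiments. In H/+ cDC1, Cybb (2.40 ± 0.17 SE) and Itgam were the 2 called, where 1.47% of all genes were. Cybb was also the 1 target higher in H/H than in H/+ cDC1 (1.75 ± 0.15 SE, adjusted p = 9.46e-05), where 0.281% of all genes were called. Itgam is also among the listed cDC2 markers, and Csf3r among the listed neutrophil markers. The part of cDC2, hybrid or other cells in these rises was not tested.

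Hybrid cells had 17 targets higher and 1 lower than cDC1 in H/+ mice, 15 higher and 0 lower in H/H mice of experiment 1, and 17 higher and 1 lower in experiment 2. The shares of all genes called were 16.5%, 7.85% and 12.5%. The medians were 0.86, 0.59 and 0.65, against 0.01 for all genes in each case. The Fc receptor Fcgr3 was among the largest, by log2 4.34 ± 0.29 SE, 4.30 ± 0.29 SE and 4.72 ± 0.27 SE in the 3 comparisons. The summed level of the 16 monocyte and macrophage markers, of which Fcgr1 and Lyz2 are also among the targets, was 1774 to 2127 CPM in hybrid cells and 871 to 931 CPM in the H/+ and H/H cDC1 of experiment 1, and its part was not tested. Against cDC2, 2 targets were higher and 3 lower in H/+ hybrid cells and 4 higher and 5 lower in H/H, where 19.0% and 25.4% of all genes were called. In Nfil3-/- hybrid cells 4 targets fell and 1 rose (3.73% of all genes called), while Zeb2 -165D123 hybrid cells had 3 higher and 2 lower than H/H hybrid cells (4.03%).

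Of 16 factors known to partner with PU.1, 14 passed the filter. Irf8 and Irf4, which bind beside PU.1 and Spi-B, took opposite courses. In WT cDC1 against cDC2 Irf8 was higher (log2 5.55 ± 0.16 SE) and Irf4 lower (-5.30 ± 0.30 SE), among 3 partners higher and 7 lower, where 44.0% of all genes were called. In H/H cDC1 Irf8 fell by 1.44 and by 1.81 on the log2 scale in the 2 experiments, and Irf4 rose by 1.84 ± 0.29 SE and 2.19 ± 0.32 SE. Tcf4 and Bcl11a were the other partners called in H/H cDC1, both higher in both experiments (4.17% and 6.32% of all genes called). In H/+ hybrid cells against H/+ cDC1 Irf4 rose by 2.6 ± 0.27 SE and Irf8 fell by 1.53, among 5 partners higher and 2 lower, where 16.5% of all genes were called. Jun was the 1 partner called in H/H Nfil3-/- cDC1, where it fell and 3.03% of all genes were called.

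The 2 factors with the widest range in experiment 1 were set against 7153 other genes by the Pearson correlation of group means (log2 CPM) over the 8 groups, as a description that rests on 8 points. The genes most like Ehf were Gpr141 (r = 0.993), Ifit3b (0.990) and Runx2 (0.989). Over the 6 groups of experiment 2, which were not used to choose them, r was 0.923, 0.902 and 0.961. The genes most like Spib were Relb (0.999), Slc44a1 (0.996) and Samsn1 (0.993), and their r in experiment 2, which had no cDC2, was 0.719, 0.524 and 0.432.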

How the data were processed

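Bulk RNA-seq was measured in 28 libraries of 14 groups with 2 libraries each. The authors deposited expected counts (estimated counts of reads for each gene ID), with a separate table for each experiment. Per the submitters' processing notes, bcl2fastq, DRAGEN and edgeR were used (versions not given), and the build and annotation are not given in the sources used here. Per the labels' protocols, libraries were made from 10 ng of RNA with a SMARTer Ultra Low kit and PCR, without a mention of molecular identifiers. Of the deposited values 10.8% and 10.2% were not whole, and all were rounded. Each table had 55774 lines, of which 287 repeated a gene ID and were left out. Coordinates and exon lengths came from GENCODE M21 (GRCm38) by gene ID, which held 99.4% of the IDs.

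Each experiment was fitted on all its libraries with 1 coefficient per group in edgeR 4.0.16 (R 4.3.3), with filterByExpr, TMM scaling (factors 0.914 to 1.113 and 0.962 to 1.032), glmQLFit with robust estimation and glmQLFTest. This tested 16036 genes in experiment 1 (8 residual degrees of freedom) and 14504 in experiment 2 (6). P-values were adjusted by Benjamini-Hochberg across every gene tested in a comparison, and 0.05 was the threshold. SE is the log2 fold change divided by the square root of F, log2 CPM used a prior count of 2, and the fit was checked on simulated counts. Alternatives were RLE size factors, no filter on low counts, DESeq2 1.42.0, the replicate number as a block, a term for libraries with Xist at 10 CPM or more, and leaving out each library, where a lone library is assumed to vary like the other groups. 3 comparisons were added after the data were seen. Comparisons that share control libraries are not independent. The factors and gene lists were chosen with earlier results of these data known. By a fixed rule every factor past the threshold is named with its libraries. At most 4 targets, partners or other ETS genes are named per comparison. In some comparisons the called genes of these lists are given by count only or are not given. Spic, Elk1, Ptprc, Tcf4, Bcl11a and Jun are named beside small counts. Some genes of the lists are not reported here by name.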

Additional observations from a re-analysis of the deposited data

Results flagged for a closer look

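The effect of the H/H genotype differed between cDC1 and cDC2, by a test of the difference itself, for 1 of the 10 ETS factors, for 4 of 28 PU.1 targets, 3 of which are given here, and for 2 of 14 partner factors tested, where 1.90% of all genes were called. The log2 effect in cDC1 minus that in cDC2 was 3.07 for Ehf (edgeR adjusted p = 0.00246). For the targets it was 4.36 for Cybb (adjusted p = 6.62e-08), 3.68 for Csf3r (adjusted p = 0.00303) and 2.76 for Itgam (adjusted p = 0.000494). Csf3r was at most 0.0786 CPM in WT cDC1, so its fitted value depends on the prior count. Itgam is also a listed cDC2 marker and Csf3r a listed neutrophil marker, and the part of other cells in these values was not tested. For the partners the log2 effect in cDC1 minus that in cDC2 was -2.46 for Irf8 (adjusted p = 3.65e-06) and 1.83 for Irf4 (adjusted p = 0.0254). Irf8 is the gene whose enhancer was altered. It was lower in H/H than in WT cDC1, but in cDC2 it was 47.9 to 48.9 CPM in WT and 86.2 to 109 CPM in H/H. The Irf8 value thus joins lower levels in cDC1 with higher levels in cDC2. The Irf4 call was lost without any 1 of 7 of the 8 libraries, all but H/H cDC1 replicate 2, with values of 1.55 to 1.99 and adjusted p of 0.0581 to 0.143. No other of these calls was lost when 1 library was left out.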

How the results depend on the processing

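Of 50 changes of the 10 factors past the threshold, 28 kept their call and direction under every alternative and 0 reversed. RLE scaling, which moved the median of all genes by at most 0.022 on the log2 scale, and DESeq2 lost none, no filter lost 3, the replicate block 1 and the Xist term 2, and leaving out 1 library lost 61 of 204 repeats. The number of factors called became, with no filter on low counts, 2 in H/+ against WT cDC1, 4 in H/H against WT cDC1 and 2 in H/H hybrid against H/H cDC1 (both experiment 1), 2 in the difference of H/H effects, 4 in Nfil3-/- cDC1 and 3 in Nfil3-/- hybrid cells. DESeq2 gave 2 in H/+ against WT cDC1, 4 in Nfil3-/- cDC1 and 2 in Nfil3-/- hybrid cells. The cause was not tested.

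Replicate numbers come from the titles and no label says that they mark 1 animal or day, so no pairing was assumed. Deviations of equally numbered libraries from their group means correlated at 0.04 to 0.342 in experiment 1 and -0.205 to 0.231 in experiment 2, over only 2 numbers. Over all genes the block moved the number called by over 1.5 times in H/+ against WT cDC1 (236 to 599), H/H against H/+ cDC1 (45 to 136), H/+ and H/H against WT cDC2 (4 to 17 and 13 to 22), H/H against H/+ hybrid cells (21 to 59) and the difference of H/H effects (305 to 479). With the replicate block the factors called became 3 in H/+ against WT cDC1, 2 in the difference of H/H effects and 1 in Zeb2 -165D123 against H/H hybrid cells. In experiment 1 the Xist term is the same as the block (3 and 2), and in the Zeb2 comparison it gave 0.

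Leaving out 1 library in turn, the number called ranged from 0 to 2 in H/+ against WT cDC1, 1 to 1 in H/H against WT cDC1, 3 to 4 and 2 to 3 in H/+ hybrid cells against cDC1 and cDC2, 0 to 1 and 2 to 3 in H/H hybrid cells against cDC1 and cDC2 (experiment 1), and 4 to 7 in H/+ cDC1 against cDC2. In experiment 2 it was 0 to 1 in Nfil3-/- cDC1 and in Zeb2 -165D123 against either hybrid group. The cause was not tested. With 2 libraries a group and Ets1, Ets2 and Spib at a few CPM in cDC1, small differences were not detectable, and a factor that missed the threshold is not shown to be equal.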

Other observations

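In experiment 1 all 8 libraries numbered 2 held Xist at 120 CPM or more, and the 8 numbered 1 held at most 0.0349 CPM, so library sex and replicate number cannot be told apart there. In experiment 2, 3 of 12 libraries held Xist. With a term for these libraries in experiment 1, 522 genes (3.26%) passed the threshold, 237 higher and 285 lower in the libraries with Xist. Ehf was lower in them by log2 -0.42 ± 0.06 SE (edgeR adjusted p = 0.0015), and the library without Xist had the higher Ehf value in 8 of 8 groups. Elf1 was lower by -0.16 ± 0.04 SE (adjusted p = 0.0498), also in 8 of 8 groups. The other 8 factors did not pass.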
